A study of Mus musculus with 6 samples.

Results

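The genes described here are 9 enzymes of the kynurenine pathway and Tph2, the brain tryptophan hydroxylase, in the prefrontal cortex of BTBR and C57BL/6J mice. These members were chosen with earlier results of these data known, and their probes were taken by symbol alone, old or current, among non-control probes. The members are Tdo2, Afmid, Aadat, Kyat1 (Ccbl1 in the files), Kyat3 (Ccbl2 in the files), Kmo, Kynu, Haao, Qprt and Tph2. They make up 10 of 20703 named genes on the array and are read by 13 of its 41174 probes. The 6 one-colour arrays each held RNA of the whole prefrontal cortex of 1 male mouse, aged 5 months and given no drug, 3 mice per strain. C57BL/6J mice are labelled wild type, and the other mice carry the genotype BTBR T+ Itpr3tf/J, an inbred line that lacks the corpus callosum, shows little social approach and serves in autism research. The strain background field of the BTBR samples also reads C57BL/6J, whereas their titles and genotype name BTBR.

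Most tryptophan that is not built into protein is broken down along the kynurenine pathway. The dioxygenases TDO and IDO open its ring and arylformamidase (Afmid) releases kynurenine. Kynurenine then goes one of 2 ways. Aminotransferases (Aadat, Kyat1, Kyat3) turn it into kynurenic acid, which blocks NMDA receptors and is called the neuroprotective branch, mostly in astrocytes. The monooxygenase Kmo, the kynureninase Kynu and the dioxygenase Haao lead to quinolinic acid, which activates NMDA receptors and is called the neurotoxic branch, mostly in microglia and macrophages. Qprt removes quinolinic acid by making an NAD precursor from it. Tph2 sends tryptophan to serotonin instead, and its mRNA is made in raphe neurons of the brainstem, whose axons reach the prefrontal cortex.

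No member differed between the strains by the test, and the neurotoxic branch was the least well measured. Levels below are log2 signals relative to each array's 75th percentile, and a probe was tested when at least 3 of the 6 arrays read it well above background. That left 7 of 10 members in the test, namely Afmid, Aadat, Kyat1, Kyat3, Haao, Qprt and Tph2. Tdo2, Kmo and Kynu did not reach it. Of the 7, 0 passed at an adjusted p of 0.05 (limma, Benjamini-Hochberg over all 16334 genes tested), where 5.69% of all genes passed. At an unadjusted p under 0.05 there was 1 of the 7, Afmid, against 17.1% of all genes. A count of 0 among 7 genes lies near that background, so it sets the members apart from no other genes. All 7 had lower means in BTBR, against 48.5% of all genes, but Haao and Tph2 entered the test through more C57BL/6J than BTBR arrays, so nothing is read from that count. It was 5 of the 5 members measured on all 6 arrays, and 5 of 7 without C57BL/6J 3 and BTBR 2. The median log2 difference of the 7 was -0.32, against 0.01 over all genes.

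The probes decide which RNA was read, so those of the dim or discordant members are shown, from the scanner files, with positions in mm9. The Tdo2 probes are given whole, because each matches 60 bases spread over 1278 and 3011 genomic bases (chr3:81772155-81773432 and chr3:81767918-81770928, minus strand) and so crosses a splice junction. For the others the first 30 of 60 bases are given, 5′ to 3′.
Tdo2 probe 1: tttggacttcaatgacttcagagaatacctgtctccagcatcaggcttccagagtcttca
Tdo2 probe 2: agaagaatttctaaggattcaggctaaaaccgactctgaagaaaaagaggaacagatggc
Afmid probe 1: cctgtgtgtagcaggctctaccagacctga
Afmid probe 2: cgtcaagagcagagggaaagattggcagtg
Kmo: aaatgcaataaccaacatctctttcacttc
Kynu probe 1: catatgaacaacctcaactcaaatgcaaaa
Kynu probe 2: tttacatgactacagcctacagatgactgt
Haao: ggcctgttaatgtgtgtcatcacctcttgt
Tph2: gaaaagttttgataaacaggatatataggt
The Afmid probes lie at chr11:117700730-117700789 and chr11:117697902-117697961 (plus strand), and only the first is assigned to the gene's RefSeq transcript, the other to an Ensembl transcript. The Kynu probes lie far apart, at chr2:43492138-43492197 and chr2:43537195-43537254 (plus strand), the first on an Ensembl transcript and the second on the RefSeq one. Kmo is read at chr1:177590200-177590259 (plus), Haao at chr17:84230549-84230608 (minus) and Tph2 at chr10:114516101-114516160 (minus). The single Haao probe is also not assigned to a RefSeq transcript. The probes of Aadat, Kyat1, Kyat3 and Qprt lie at chr8:63024177-63024236 (plus), chr2:30040801-30040860 (minus), chr3:142407188-142407247 (plus) and chr7:134251475-134251534 (minus). Exon and UTR positions were not analysed here. The 13 member probes hold 35% to 55% G and C, with Kmo, Kynu probe 1 and Tph2 lowest. Probes at 40% include both Aadat, measured on all 6 arrays, and Kynu probe 2, measured on none, and Kyat3 is at 41.7%. With 1 probe for a gene, a strain variant under the probe and a change in RNA cannot be told apart.

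**Figure D1:**
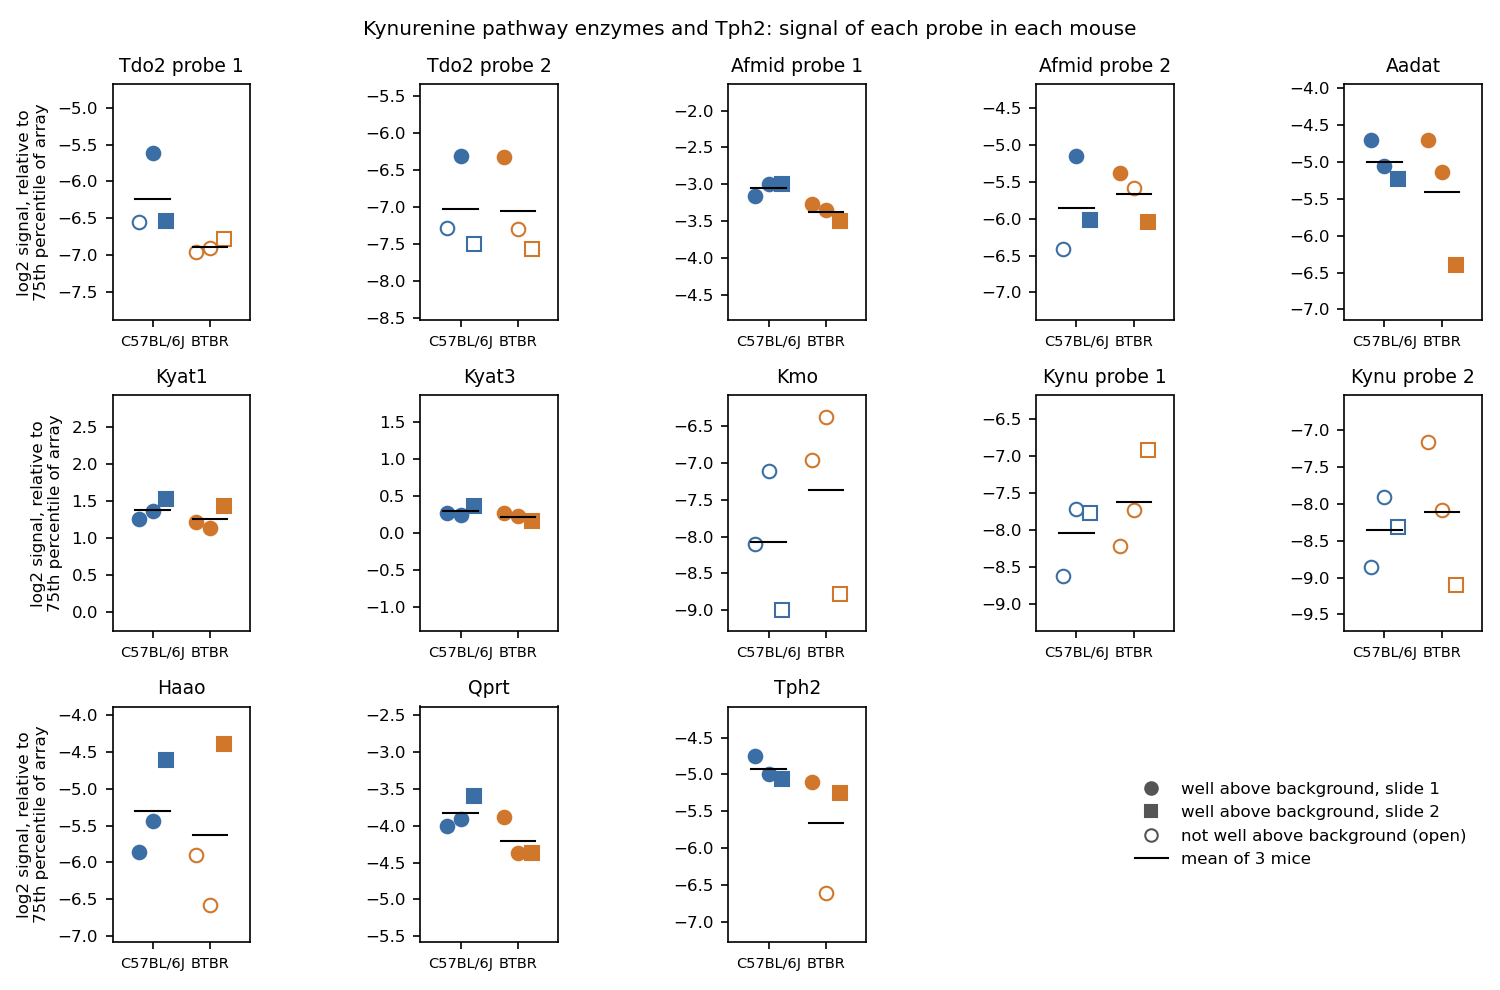
Log2 signal of each member probe in each of 6 mice, relative to the array's 75th percentile (y axis, a span of 3.2 in every panel), by strain (x axis), with circles for slide 1, squares for slide 2, open symbols where the probe was not well above background, and bars for means. Kyat1 and Kyat3 form tight groups in both strains, while every symbol of Kmo and Kynu is open.

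Entry into the pathway was read by Tdo2, a dioxygenase best known from liver, and by Afmid. Tdo2 was at the edge of detection. Its probe 1 read -6.55, -5.61 and -6.54 in C57BL/6J mice 1, 2 and 3 and -6.96, -6.91 and -6.79 in BTBR mice 1, 2 and 3. It was well above background in 2 of 3 C57BL/6J mice and in 0 of 3 BTBR mice, and the groups did not overlap. C57BL/6J 1 and all 3 BTBR arrays did not measure it, so its size is not known and no fold is given. The exact permutation test over mice was two-sided and gave p = 0.1, which is as low as 3 mice against 3 allow. Probe 2 of the same mRNA did not repeat the gap. It was well above background in 1 mouse of each strain and read -7.29, -6.31 and -7.50 in C57BL/6J and -6.32, -7.30 and -7.57 in BTBR, with groups that overlapped.

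Afmid, which releases kynurenine from its formyl precursor, came nearest to a call. Its probe 1 was well above background on all 6 arrays and read -3.15, -3.00 and -3.00 in C57BL/6J and -3.27, -3.35 and -3.50 in BTBR. Every BTBR mouse was below every C57BL/6J mouse. Means were -3.05 ± 0.09 and -3.37 ± 0.11 (SD, n = 3), a log2 difference of -0.32 ± 0.10 (SE, 95% interval -0.57 to -0.07). Its unadjusted p of 0.0198 became an adjusted p of 0.176 in limma. The difference was -0.24 within slide 1, which held mice 1 and 2 of each strain, and -0.50 within slide 2, which held mouse 3 of each. Probe 2 was well above background on 4 arrays, at -6.40, -5.15 and -6.01 in C57BL/6J and -5.38, -5.59 and -6.04 in BTBR, with overlapping groups. Its log2 difference was 0.19 ± 0.34 (SE), of the opposite sign. The mean of both probes differed by -0.07 (limma adjusted p = 0.921). With array weights, a setting that called 25.4% of all genes, Afmid passed (-0.26, adjusted p = 0.0334) as 1 of 7 members.

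The other entry enzymes, Ido1 and Ido2, catalyse the same step as Tdo2, and Ido1 is induced by interferon. Neither passed the test. Ido1 read -1.57, -0.95 and 1.86 in C57BL/6J and -2.22, -0.59 and -2.36 in BTBR, so C57BL/6J 3 stood far above the other mice and BTBR 2 was the highest of its strain. The same arrays, C57BL/6J 3 and BTBR 2, had the highest scores of 8 striatal projection neuron markers (2.46 and 0.69, against -1.31 to -0.22 on the others), where a score is the median log2 deviation from the 6-mouse mean. Ido1 differed by -1.50 ± 0.96 (SE, limma adjusted p = 0.526), and without both arrays by -1.03 ± 0.23 (adjusted p = 0.11). The part of striatal tissue in the Ido1 values was not tested. Ido2 differed by -0.35 by its brighter probe (adjusted p = 0.348) and by 0.22 by its other probe. Without C57BL/6J 3 and BTBR 2 the brighter probe differed by -0.53 (adjusted p = 0.0885). Ido2 was called lower without C57BL/6J 3 alone and with array weights, the setting that called 25.4% of all genes.

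The neuroprotective branch held the best measured members. Kyat1, a cytosolic glutamine-using aminotransferase, read 1.25, 1.37 and 1.53 in C57BL/6J and 1.22, 1.13 and 1.43 in BTBR. The groups overlapped, and the difference was -0.12 ± 0.12 (SE), with a 95% interval of -0.42 to 0.18. Kyat3, a related aminotransferase, read 0.28, 0.25 and 0.37 in C57BL/6J and 0.27, 0.22 and 0.16 in BTBR. All 6 mice lay within 0.21 of each other, and the difference was -0.08 ± 0.09, with an interval of -0.30 to 0.14. For these genes the intervals bound any decrease in BTBR at 1.34-fold and 1.23-fold and any increase at 1.13-fold and 1.10-fold.

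Aadat, the aminotransferase usually given as the main source of kynurenic acid in brain, was less precise. It was well above background on all 6 arrays, at -4.70, -5.05 and -5.22 in C57BL/6J and -4.70, -5.14 and -6.39 in BTBR. BTBR 1 matched the highest C57BL/6J mouse, and BTBR 3 alone lay below the rest. The difference was -0.42 ± 0.43 (SE, interval -1.46 to 0.62, limma adjusted p = 0.728). Without BTBR 3 it was 0.07, of the other sign. Within slide 1 it was -0.04 and within slide 2, with 1 mouse per strain, -1.17. Got2, a mitochondrial transaminase that also accepts kynurenine, differed by -0.04 ± 0.13 (SE, limma adjusted p = 0.933).

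The neurotoxic branch was mostly below detection. Kmo, the enzyme at its entry, was well above background on 0 of 6 arrays. Its signals were -8.11, -7.11 and -8.99 in C57BL/6J and -6.96, -6.38 and -8.78 in BTBR, which lay from -2.08 to -0.35 relative to the dimmest measured signal of the same array. On 2 arrays the scanner software had replaced its signal by a surrogate. Kynu, which follows Kmo, was well above background on 0 arrays by either probe. Probe 1 read -8.63, -7.72 and -7.77 in C57BL/6J and -8.22, -7.72 and -6.92 in BTBR, and probe 2 read -8.85, -7.90 and -8.32 and -7.17, -8.08 and -9.10. Values from 3 such probes have no order between strains, so no fold is given for Kmo or Kynu. A level below these arrays' detection is not an absence of the mRNA.

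Haao, which makes the precursor of quinolinic acid, was the only member of the neurotoxic branch in the test. It read -5.85, -5.44 and -4.61 in C57BL/6J and -5.90, -6.57 and -4.40 in BTBR. It was well above background in all 3 C57BL/6J mice and in 1 BTBR mouse, so it entered mainly through C57BL/6J. In both strains the mouse on slide 2 was highest, and the spread between mice exceeded the difference between strains. Means were -5.30 ± 0.63 and -5.62 ± 1.11 (SD, n = 3), a difference of -0.32 ± 0.60 (SE, interval -1.76 to 1.12, limma adjusted p = 0.87). The interval spans from 3.39-fold lower to 2.17-fold higher in BTBR. With slide as a block the difference was the same and its SE was 0.27 (adjusted p = 0.627). The difference was -0.59 within slide 1 and 0.21 within slide 2, and it turned to 0.15 without BTBR 2 and to 0.02 without C57BL/6J 3.

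**Figure D2:**
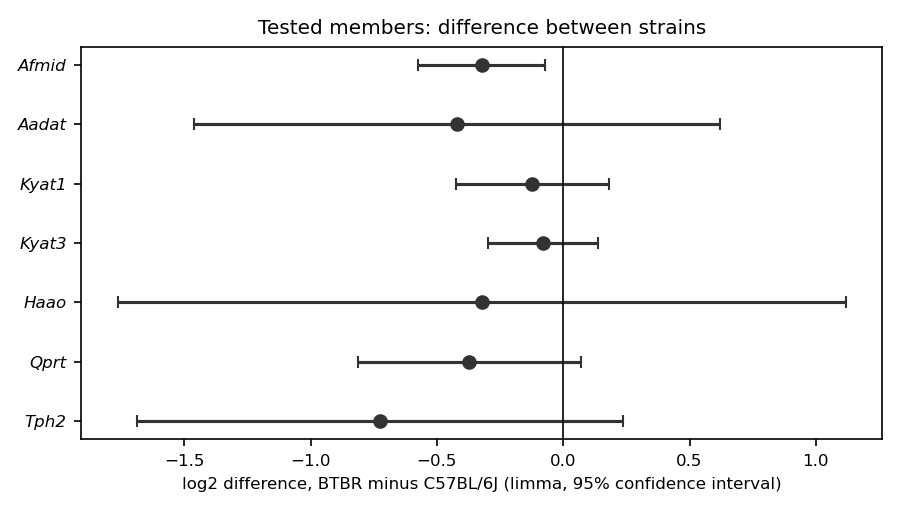
Log2 difference of BTBR minus C57BL/6J (x axis) for the 7 tested members (y axis), as points from limma with 95% confidence intervals as bars. All points lie left of 0, the Kyat3 interval is the narrowest and the Haao interval the widest, and the Afmid interval alone leaves out 0 before adjustment over all genes.

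The study's design sets the branches against each other only through these few genes. As a description, each mouse's deviation from the 6-mouse mean was taken for Haao and averaged over Aadat, Kyat1 and Kyat3. Haao minus the aminotransferases was -0.54, -0.04 and 0.75 in C57BL/6J mice 1, 2 and 3 and -0.57, -1.06 and 1.46 in BTBR mice 1, 2 and 3. Haao was not well above background in BTBR 1 and BTBR 2, and in BTBR 2 it lay at -0.74 relative to the dimmest measured signal of that array, so those scores and the differences that use them rest on unmeasured values. The highest value of each strain was that of the mouse on slide 2, and the strains overlapped. Means were 0.06 ± 0.65 in C57BL/6J and -0.06 ± 1.33 in BTBR (SD, n = 3), a difference of -0.12, within the spread between mice. It was -0.53 within slide 1 and 0.70 within slide 2, of opposite sign. Leaving out BTBR 3 gave -0.87 and leaving out BTBR 2 gave 0.38. With Kmo and Kynu unmeasured, and Haao measured in 1 of 3 BTBR mice, the data do not settle how the branches compare between strains.

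**Figure D3:**
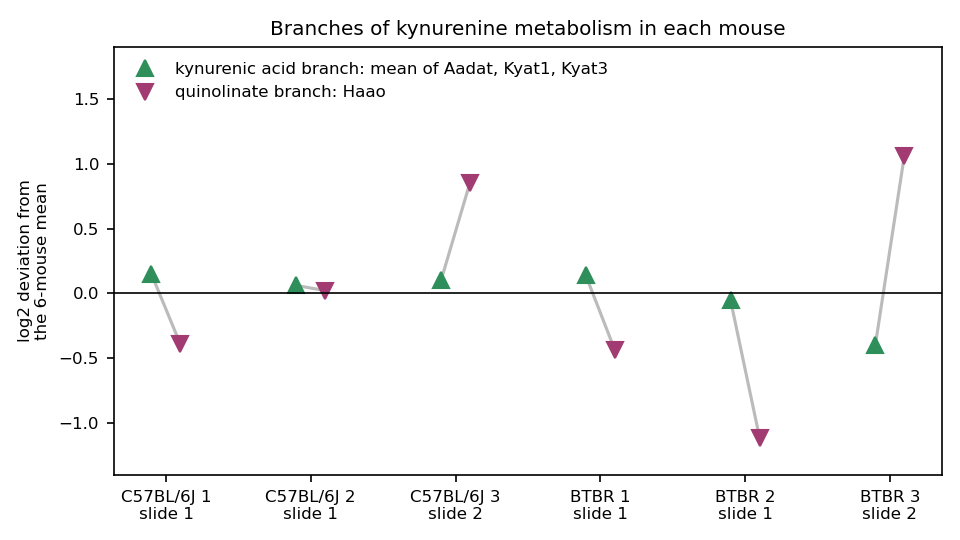
Log2 deviation from the 6-mouse mean (y axis) of Haao (downward triangles) and of the mean of Aadat, Kyat1 and Kyat3 (upward triangles) in each mouse (x axis, with its slide). Haao ranges from -1.11 in BTBR 2, where it was not well above background, to 1.06 in BTBR 3, and the aminotransferases from -0.40 in BTBR 3 to 0.15 in C57BL/6J 1.

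Qprt, which clears quinolinic acid, was well above background on all 6 arrays. It read -4.00, -3.91 and -3.59 in C57BL/6J and -3.88, -4.37 and -4.37 in BTBR, so BTBR 2 and 3 lay below all C57BL/6J mice while BTBR 1 lay among them. The difference was -0.37 ± 0.18 (SE, interval -0.81 to 0.07, limma adjusted p = 0.381). It was -0.17 within slide 1 and -0.78 within slide 2, and 1.29-fold lower in BTBR as fitted. The Qprt difference shrank to -0.09 with the authors' values and to -0.03 with limma's default array weights.

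Tph2 did not pass the test, and its difference rested mostly on 1 mouse. It read -4.74, -4.99 and -5.06 in C57BL/6J and -5.11, -6.61 and -5.25 in BTBR. Every BTBR mouse was below every C57BL/6J mouse, but BTBR 1 was only just below C57BL/6J 3, and BTBR 2, where the probe was not well above background, held most of the gap. Means were -4.93 ± 0.17 and -5.66 ± 0.83 (SD, n = 3), a difference of -0.72 ± 0.40 (SE, interval -1.69 to 0.24, limma adjusted p = 0.446). Without BTBR 2 the difference was -0.25, smaller than those of Aadat (-0.56), Afmid (-0.33) and Qprt (-0.29) without that mouse. It was -0.99 within slide 1, which held BTBR 2, and -0.19 within slide 2. With the authors' values the Tph2 difference was -0.09. BTBR 2 was also the array with the fewest probes well above background. Afmid and Tph2 were the 2 of 7 tested members whose strains did not overlap, against 23.7% of all genes in either direction and 12.5% with BTBR lower.

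In bulk tissue, fewer cells of a type and less RNA per cell cannot be told apart. Markers of the cells known to make these enzymes, and of some other cell types, were therefore read beside them. Among the other cell types, all 8 cortical excitatory neuron markers were measured on every array. All 8 means were higher in BTBR, with 0 past the test and 0 at an unadjusted p under 0.05 by limma. Their score was -0.52 in C57BL/6J 3, the array with the highest striatal score, against -0.09 to 0.22 on the others. The part of this in the members' differences was not tested. Of 6 serotonergic markers, Slc6a4 and Gata3 were well above background on no array, and of the 4 tested only En2 passed, 1.54-fold lower in BTBR (limma adjusted p = 0.0225). Scores over those 4 genes ran from 0.06 to 0.28 in C57BL/6J and from -0.31 to 0.16 in BTBR, and BTBR 2, with the lowest Tph2, was at 0.16. As raphe neurons lie in the brainstem, these scores are not a measure of such cells in this tissue. The part of these genes in the Tph2 values was not tested. All 15 microglia markers were tested, and 3 fell and 1 rose in BTBR, which is 26.7% against 5.69% of all genes. Of the 15, 11 means were lower and 4 higher in BTBR. Their log2 differences ran from -1.11 to 1.22 with a median of -0.12, so the markers did not move together. Microglia scores did not overlap, from -0.01 to 0.24 in C57BL/6J and from -0.18 to -0.06 in BTBR. All 15 markers were well above background on all 6 arrays, where Kmo and Kynu were on none. The part of microglia in the members' differences was not tested. Of 12 astrocyte markers 1 fell, Gfap (2.32-fold, adjusted p = 0.0152), and astrocyte scores overlapped, at -0.06 to 0.09 and -0.10 to 0.06. Of 6 border macrophage and monocyte markers 5 were tested, with 1 lower in BTBR (20%) and 0 higher. Their scores did not overlap, at 0.07 to 0.22 in C57BL/6J and -0.33 to -0.01 in BTBR. For a further cell type, oligodendrocytes, 4 of 8 markers were lower (50%) and 0 higher. Oligodendrocyte scores were 0.13 to 0.51 in C57BL/6J and -0.41 to -0.23 in BTBR. The part of either in the members' differences was not tested.

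Around the members, lists of genes that feed, assist or read the pathway were counted. Over all 11 lists, 73 of 85 genes were tested, 3 were higher and 1 lower in BTBR, where 2.19% of all genes were higher and 3.50% lower. That is 5.48% in either direction, close to the 5.69% of all genes. Their median log2 difference was -0.02, against 0.01 over all genes. The serotonin list, Tph2 included, had 0 of 7 tested genes past the test by limma and 0 at an unadjusted p under 0.05. Maob, which degrades monoamines, was at -0.31 (adjusted p = 0.298) and the melatonin enzyme Aanat at 0.84 (adjusted p = 0.627).

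The tetrahydrobiopterin list, whose product is the cofactor that Tph2 needs, had 2 of 8 genes past the test and a median of 0.14. Those 2 were higher in BTBR, which is 25% of the list, against 2.19% of all genes. Gchfr, the feedback regulator of the first enzyme of that synthesis, read -2.35, -2.18 and -2.31 in C57BL/6J and -1.39, -1.17 and -1.44 in BTBR. It was 1.93-fold higher (0.95 ± 0.11 SE, limma adjusted p = 0.00579), with groups well apart. Pcbd2, which helps recycle the cofactor, was 1.42-fold higher (adjusted p = 0.0397). Gchfr and Pcbd2 had 1 probe each, so a strain variant under the probe and a change in RNA cannot be told apart. Qdpr, which regenerates the cofactor, differed by -0.20 (adjusted p = 0.443). The Gchfr call was lost with normexp background correction (adjusted p = 0.42), and the Pcbd2 call in 11 of 22 alternatives.

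The largest difference near the pathway was that of 1 gene in the list of tryptophan transport and use. Slc7a8, a transporter of large neutral amino acids including tryptophan, read 1.50, 1.55 and 0.82 in C57BL/6J and -0.36, -0.74 and -0.46 in BTBR. It fell 3.51-fold (-1.81 ± 0.22 SE, limma adjusted p = 0.00744). Slc7a8 had 1 probe, so a strain variant under the probe and a change in RNA cannot be told apart. Wars2, the mitochondrial tryptophan tRNA ligase, rose 1.70-fold (adjusted p = 0.0402), and 2 further probes for it gave 0.70 and 0.28. The Wars2 call was lost in 9 of 22 alternatives, normexp among them (adjusted p = 0.674), and remained on leaving out BTBR 3 but no other single mouse. Slc7a5, the main transporter of tryptophan at the blood-brain barrier, differed by -0.43 ± 0.28 (adjusted p = 0.527). The list of 8 tested genes had a median of -0.03.

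**Figure D4:**
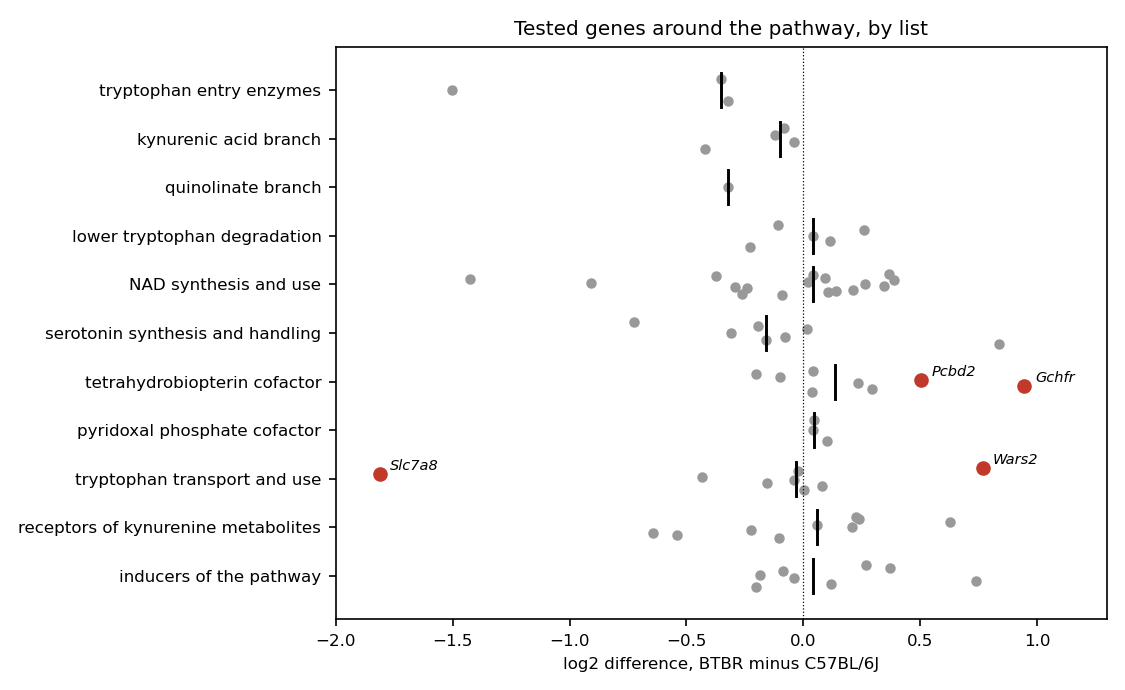
Log2 difference of BTBR minus C57BL/6J (x axis) for each tested gene of the 11 lists (y axis), in red and named where the adjusted p was under 0.05, with list medians as bars. Slc7a8 lies at -1.81, Gchfr, Wars2 and Pcbd2 lie between 0.50 and 0.95, and no kynurenine pathway enzyme is red.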

How the data were processed

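The deposited scanner files hold intensity values, 1 spot per line; the file headers give Feature Extraction 10.7.3.1, the submitters' processing notes 9.1. The authors' deposited matrix holds log2 values of unstated scaling and served only as an alternative. From log2 of each processed signal, the 75th percentile of its array over 41174 probes was subtracted. Outlier spots, 54 to 107 an array, were dropped if the probe had another spot. Each gene took its brightest probe well above background on at least 3 arrays. Symbols came from RefSeq (GRCm38.p6, names only). The comparison of strains used limma (version 3.58.1, R version 4.3.3) and Benjamini-Hochberg adjustment; the fit was tested on simulated data. Between 28101 and 30665 probes per array were well above background, and 3 mice per strain limit the precision. The labels gave RNA integrity 9. Replicate 3 of both strains was on slide 2, the others on slide 1. No label says that mice came from separate litters, so p-values measure the spread between these samples. Other backgrounds, scalings, filters, weights, blocks and left-out mice were tried.

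Members and lists were chosen with earlier results of these data known. Named are every member and, in each list, the genes past the test, or the 3 with the smallest p-values where fewer pass. The En2, Gfap and other markers named were chosen after their values were seen. Values of 2 such list genes are not reported here.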

Additional observations from a re-analysis of the deposited data

How the results depend on the processing

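Over 22 alternatives, 0 members passed in 21. With array weights by limma's default method, which did not converge and gave BTBR 1 a weight of 8.79, 1 passed, Afmid (adjusted p = 0.0334, range over its alternatives 0.0334 to 0.921). That setting called 4153 genes and 26 list genes, and turned Aadat to 0.20 and Kyat3 to 0.0028. Weights by the gene-by-gene method, chosen after seeing the data, called 1832 genes and 9 list genes. Normexp called 204 genes and 1 list gene, Slc7a8, and single probes 1479. Without C57BL/6J 3 and BTBR 2, also chosen after seeing the data, Haao was at 0.50 and Kyat1 at 0.017. Leaving out 1 mouse gave 435 to 912 genes, 2 to 6 list genes, Aadat at -0.77 to 0.072 and Haao at -0.93 to 0.15. No filter on dim probes called 2 list genes. With the authors' values Tph2 and Qprt were at -0.09, Aadat at -0.03 and Haao at -0.01. Afmid was then at -0.12, Kyat1 at -0.13 and Kyat3 at -0.04. A replicate block called 503 genes, 2 list genes and 0 members. Deviations of same-numbered mice from their strain means had correlations of 0.03, -0.17 and -0.08. Even the replicate 3 mice, which shared slide 2, gave -0.08, so these values cannot decide whether the numbers pair mice. With probes required on all 6 arrays, Haao and Tph2 had no value.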

Other observations

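None of the genes downstream of the pathway, of its receptors or of its inducers passed limma's test between strains; over the 5 lists below, values are BTBR minus C57BL/6J log2 differences with adjusted p-values. NAD synthesis and use, which Qprt feeds, had 0 of 17 genes past the test, 3 at an unadjusted p under 0.05 and a median of 0.04. Those were Nmnat3, which makes mitochondrial NAD (-0.91, adjusted p = 0.103), Nnmt, which methylates nicotinamide (-1.43, adjusted p = 0.111), and the nuclear enzyme Nmnat1 (0.34, adjusted p = 0.164). Nnmt passed with slide as a block, within slide 1 and with limma's default array weights, and Nmnat1 and Nmnat3 with either kind of array weights. In lower tryptophan degradation 0 of 5 tested genes passed and 0 had an unadjusted p under 0.05, with Gcdh at 0.26, Acat1 at -0.23 and Hadh at -0.11; Acmsd, which diverts the quinolinic acid precursor, was well above background on 0 arrays. The pyridoxal phosphate list, which supplies the cofactor of the aminotransferases and of Kynu, had Pdxk at 0.10 and Pdxp at 0.04, and 0 of 3 had an unadjusted p under 0.05.

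Among receptors of kynurenine metabolites 0 of 9 tested genes passed and 3 had an unadjusted p under 0.05. The aryl hydrocarbon receptor partner Arnt was at -0.64 (adjusted p = 0.142) by its brightest probe and at 0.05, 0.08 and 0.26 by its others, the repressor Ahrr at -0.54 (adjusted p = 0.23), and the NMDA receptor subunit Grin2a at 0.63 (adjusted p = 0.236). Arnt was called lower within slide 1, without C57BL/6J 3, and without C57BL/6J 3 and BTBR 2 (-0.89, adjusted p = 0.0336), and Ahrr without C57BL/6J 3; both were called with either kind of array weights. Among inducers 0 of 8 tested genes passed. Ifngr1 was at -0.20 (adjusted p = 0.297) and Il1b at 0.74 (adjusted p = 0.351). Ifng, Tnf and Il6 did not reach the test.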
